A study of Homo sapiens with 11 samples.

Results

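The 10 genes described here are the receptor tyrosine kinases EGFR, ERBB2, ERBB3 and MET and the EGF-like ligands AREG, EREG, HBEGF, TGFA, BTC and EGF. They were chosen by gene symbol among the 25590 genes listed, and all 10 were found and measured in all 11 tumours. The tumours were subcutaneous xenografts of PC-3, a human prostate carcinoma cell line that lacks androgen receptor signalling, grown in male athymic nude mice (Crl:NU-Foxn1nu), which have no functional T cells, and the mice were 8 weeks old when the tumours were set. From day 7 on, the mice bearing 6 of the sequenced tumours received A2M*, the transformed receptor-binding form of the proteinase inhibitor alpha2-macroglobulin. The dose was 5.6 mg per 20 g body weight intraperitoneally, and the mice bearing the other 5 tumours received PBS. Each tumour gave 1 library of human-specific reads, and tumours are called here by the names in their labels, such as PC3_tumor_123. The comparison asks whether RNA of growth factor receptors and their ligands differed in the tumour cells after treatment.

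EGFR, ERBB2 and ERBB3 belong to a family of receptors at the cell surface that pair with each other once a ligand is bound. ERBB2 has no ligand of its own, and ERBB3 has little kinase activity and signals mainly as a partner of the others. MET is the receptor of hepatocyte growth factor (HGF), which is made by stromal cells. The ligands are made as membrane-bound precursors that ADAM proteases cut from the cell, and the receptors drive growth, survival and migration through the RAS-ERK and PI3K pathways.

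Libraries held between 26042224 and 35874381 counts in the PBS group and between 16958533 and 33223999 in the A2M* group, and 3 counts, taken as the lowest amount that can be shown, equalled 0.0836 to 0.177 per 1e+06 counts (counting error only). The 5 epithelial and PC-3 markers KRT8, KRT18, EPCAM, CD44 and VIM summed to 1033 to 1137 RPKM (reads per kilobase of exon and 1e+06 counted reads) in the PBS tumours and 982.3 to 1170 RPKM in the A2M* tumours. KLK3, the gene of prostate-specific antigen, had 0 counts in each tumour. All 5 fibroblast markers had reads, with sums of 54.1 to 112.6 RPKM in the PBS and 54.1 to 155.9 RPKM in the A2M* tumours. This sum was mainly COL1A1, while DCN and LUM stayed at or below 0.0920 RPKM. The 4 endothelial markers summed to 3.33 to 5.24 RPKM, and 3 of them were under 1 RPKM in every tumour. The 5 immune markers summed to 16.1 to 21.0 RPKM, which came mainly from CD68 and LYZ, while PTPRC stayed at or below 0.357 RPKM. The part of these markers in the results below was not tested.

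ERBB2 was the most abundant of the 10 RNAs in each of the 11 tumours. Its level on the length-corrected RPKM scale had a median of 65.2 and ran from 44.5 to 95.3, which placed its mean above 94.0% of the genes tested. MET followed with a median of 25.7 RPKM (22 to 34.3) and ERBB3 with 17.4 RPKM (13.1 to 20.6). EGFR was the lowest of the 4 receptors, with a median of 6.69 RPKM and a range from 6.07 to 10.2. ERBB2 made up 45.6% to 66.2% of the summed receptor RPKM, and EGFR 4.22% to 8.96%. The ranges of ERBB2, MET and ERBB3 did not overlap with each other over the tumours, and MET lay above ERBB3 in 11 of 11 tumours.

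Among the ligands, HBEGF, a heparin-binding growth factor, had the highest median, 12.3 RPKM (8.0 to 17.9). TGFA, a ligand of EGFR alone, followed with 8.52 RPKM (6.48 to 10.4). HBEGF exceeded TGFA in 9 of 11 tumours and ERBB3 exceeded HBEGF in 10 of 11, so both pairs of neighbours overlapped in their ranges. TGFA was above EGFR in 10 of 11 tumours, with a lowest ratio of 0.998. Together, HBEGF and TGFA supplied the larger part of the ligand RNA, with median shares of 43.2% and 33.3% of the summed ligand RPKM. BTC (betacellulin) had a median of 2.13 RPKM and EGF itself 1.74 RPKM, and BTC exceeded EGF in 9 of 11 tumours. EREG (epiregulin) was lowest, at 0.166 to 0.320 RPKM and 13 to 46 counts per tumour. EGF exceeded EREG at least 4.83-fold in every tumour. The summed RPKM of the receptors was 2.97 to 6.17 times that of the ligands. The receptor sum holds ERBB2 and MET, which bind none of these ligands, and the ligand sum holds human reads only. This ratio compares summed RNA levels and is not a balance of receptors and their own ligands. The ligand sum holds AREG at its deposited level, so the shares and this ratio depend on the AREG exon length treated below.

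**Figure D1:**
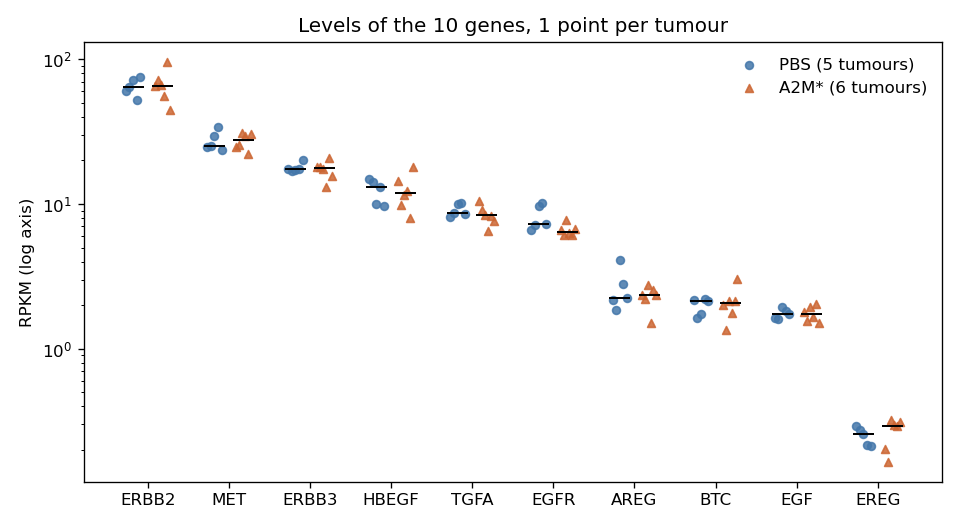
Level of each of the 10 genes in RPKM on a log axis, ordered by the median over all tumours, with circles for the 5 PBS tumours, triangles for the 6 A2M* tumours and black bars for group medians. ERBB2 lies highest with 44.5 to 95.3 RPKM and EREG lowest with 0.166 to 0.320 RPKM, and the groups overlap for every gene.

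AREG (amphiregulin), with a median of 2.34 RPKM, cannot be ranked among these ligands, since the genome build used by the authors (hg19) holds the gene in 2 copies. In GRCh37, the same assembly, GENCODE places AREG on chromosome 4 from 75310853 to 75320722 and the copy AREGB from 75480629 to 75490486, 159.9 kb further on and on the same strand. The files list no AREGB. The exon length behind the AREG RPKM is 2552 bases, whereas the 6 exons of one AREG transcript hold 1234 bases and those of AREGB 1239, or 2473 in sum. The coding sequences of 756 bases differed at 1 position, G30A, counted from the first base of the start codon. The stretch from coding base 10 to 50 in exon 1 is shown for both copies to let the extent of their likeness be seen, with the differing base in capitals (plus strand of GRCh37, chr4:75311072-75311112 for AREG and chr4:75480848-75480888 for AREGB).
AREG: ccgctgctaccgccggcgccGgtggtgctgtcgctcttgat
AREGB: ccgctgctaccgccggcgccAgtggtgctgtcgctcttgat
Of the 1185 windows of 50 bases along the AREG transcript, 95.8% also occur in the AREGB transcript, and of windows of 100 bases 91.2%. Whether reads matching both copies were counted is not given in the sources used here. With the same counts set over 1 of 2 equal parts of the 2552 bases, AREG would have a median of 4.67 RPKM. It would then lie above BTC and EGF in 11 of 11 tumours and above EGFR in 0. That presumes that each read was counted once, which is not known, so no rank of AREG follows from it. Comparisons of AREG between tumours do not depend on this length.

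The genes EREG, AREG and BTC lie together on chromosome 4 of GRCh37. EREG spans 75230862 to 75254466, 56.4 kb before AREG, and BTC spans 75669969 to 75719733 on the other strand. EPGN, the gene of the further EGF-like ligand epigen, opens this stretch of 545.5 kb. EGF is on the same chromosome but far away, from 110834039 to 110934922. EGFR (55086710 to 55279321) and MET (116312250 to 116438431) are both on chromosome 7. ERBB2 is on chromosome 17 from 37844167 to 37886679 and ERBB3 on chromosome 12 from 56470583 to 56497289. HBEGF is on chromosome 5 from 139712428 to 139726188, and TGFA on chromosome 2 from 70674416 to 70781325. Exons of ERBB2 overlap those of MIEN1 over 571 bases and of PGAP3 over 144 bases, and exons of EGFR overlap the antisense RNA EGFR-AS1 over 186 bases, all on the other strand. ERBB3 shares 31 exon bases with another annotated gene on the same strand. These overlaps were taken over all GENCODE exons, 15941 bases for EGFR, 10321 for ERBB2 and 11711 for ERBB3. The deposited RPKM rest on fewer bases, 6571, 5497 and 6193, so the overlaps need not lie in the counted gene models. Since the strand setting of the counting is not given in the sources used here, reads in any counted opposite-strand overlap may belong to either gene.

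EGFR had the largest difference of the 10 genes between the treatments and was lower in the A2M* tumours, but it did not pass the test over all genes. On the CPM scale (counts per 1e+06 counts after TMM scaling of each tumour), EGFR stood at 43.1 in PBS tumour PC3_tumor_123, 49.4 in PC3_tumor_124, 66.1 in PC3_tumor_125, 66.7 in PC3_tumor_126 and 48.8 in PC3_tumor_127. In the A2M* tumours it ran from 38.9 to 49.6 CPM with a median of 41.7. PC3_tumor_125 and PC3_tumor_126 lay above every A2M* tumour, 3 A2M* tumours lay below every PBS tumour, and the groups overlapped. The means were 54.8 ± 10.9 CPM (SD, n = 5) and 42.7 ± 3.99 CPM (SD, n = 6). The log2 fold change was -0.36 (standard error 0.115, unadjusted p = 0.00758, adjusted p = 0.640 in edgeR's quasi-likelihood test with Benjamini-Hochberg adjustment over all genes), the 192nd smallest p of 16630 genes. The unadjusted p stayed between 0.00162 and 0.0279 with each tumour left out, and the fold change was -0.28 without PC3_tumor_125 and -0.28 without PC3_tumor_126. In bulk tumour RNA, fewer cells with the RNA and less RNA per cell cannot be told apart.

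None of the 10 genes passed an adjusted p under 0.01, and in this fit 0% of the 16630 genes tested did. By the same test 1 of the 10, EGFR, had an unadjusted p under 0.05, against 7.08% of all genes tested. Without PC3_tumor_128 of the A2M* group there were 2, beside 1162 of all genes in that fit, and with any other tumour left out 1. The second gene without PC3_tumor_128 was TGFA at -0.24 in log2 (edgeR unadjusted p = 0.0379, adjusted p = 0.694). The groups did not overlap in CPM for 0 of the 10 genes, against 0.71% of all genes. The adjusted p of the 10 lay between 0.640 and 0.995, where the smallest of any gene was 0.599. The fold change was below 0 for 8 of the 10 genes and above 0 for EREG and BTC, with a median of -0.05, beside -0.002 over all genes. Since no labels name separate animals beyond the tumour numbers, the p-values measure the spread between these tumours.

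Of the other receptors, ERBB2 stood at 327.1 CPM in PC3_tumor_123, 367.3 in PC3_tumor_124, 410.8 in PC3_tumor_125, 284.3 in PC3_tumor_126 and 419.9 in PC3_tumor_127 of the PBS group. The A2M* values ran from 245.9 to 511.0 CPM with a median of 355.0, on both sides of the PBS range. ERBB2 averaged 361.9 ± 57.1 CPM with PBS (SD, n = 5) and 359.9 ± 90.9 CPM with A2M* (SD, n = 6), which gave a fitted difference of -0.01 in log2 (SE 0.160). The highest value belonged to PC3_tumor_132 and the lowest to PC3_tumor_112. MET averaged 186.4 ± 29.3 CPM with PBS (SD, n = 5) and 179.4 ± 23.5 CPM with A2M* (SD, n = 6), or -0.05 in log2 (SE 0.111). ERBB3 averaged 112.2 ± 8.02 CPM with PBS (SD, n = 5) and 104.7 ± 15.6 CPM with A2M* (SD, n = 6), or -0.10 in log2 (SE 0.0985). Its lowest value, 78.6 CPM, was in PC3_tumor_131 of the A2M* group, and the ERBB3 difference was -0.03 without this tumour, -0.05 without PC3_tumor_127 and -0.16 without PC3_tumor_132. For these 3 receptors, the difference between the treatments was smaller than the spread between tumours of a group.

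**Figure D2:**
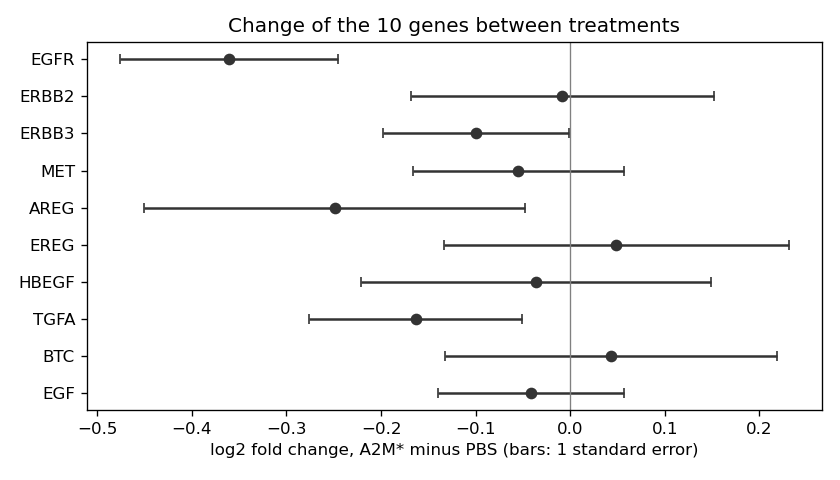
Log2 fold change of each of the 10 genes, A2M* minus PBS, from edgeR's quasi-likelihood fit over all genes, with bars of 1 standard error. EGFR lies lowest at -0.36 and the other 9 genes lie between -0.25 and 0.05.

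Among the ligands, AREG had the largest difference, -0.25 in log2 (SE 0.201). It stood at 10.8 CPM in PBS tumour PC3_tumor_125 and at 4.93 to 7.10 CPM in the other 4 PBS tumours, against 3.72 to 6.87 CPM in the A2M* tumours. Without PC3_tumor_125 the fold change was -0.02, so that the difference leaned on this tumour. TGFA stood at 34.9 CPM in PC3_tumor_123, 38.9 in PC3_tumor_124, 45 in PC3_tumor_125, 43.7 in PC3_tumor_126 and 37.5 in PC3_tumor_127, all with PBS, and at 27.1 to 44.7 CPM with a median of 35.1 in the A2M* tumours. The groups overlapped, with 2 A2M* tumours below every PBS tumour, and the fitted difference was -0.16 in log2 (SE 0.113), or -0.09 without PC3_tumor_131. HBEGF, the ligand highest in RPKM, ranged from 23.3 to 35.1 CPM in the PBS and from 18.4 to 42.3 CPM in the A2M* tumours, so its whole PBS range lay inside that of the A2M* group. The fitted log2 difference was -0.04 for HBEGF (SE 0.185), 0.04 for BTC (SE 0.175), 0.05 for EREG (SE 0.182) and -0.04 for EGF (SE 0.0984). BTC reached 4.03 CPM in A2M* tumour PC3_tumor_112, against 1.77 to 2.90 CPM in the other 10 tumours. Summed over the 6 ligands, with AREG as deposited, the level was 28.1 ± 2.17 RPKM with PBS (SD, n = 5) and 27.1 ± 4.04 RPKM with A2M* (SD, n = 6).

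Ratios within a tumour do not depend on how libraries are scaled, and 3 of them were compared by permuting the treatment labels of the tumours exactly, on both sides, where the smallest possible p is 0.00216. EGFR stood at 0.0972 to 0.196 of the ERBB2 level in the PBS tumours and at 0.0637 to 0.150 in the A2M* tumours. The log2 ratio differed by -0.31 (exact permutation p = 0.264, adjusted over the 3 ratios p = 0.701). For AREG to EREG, where the size of the ratio depends on the AREG length but its difference between tumours does not, the log2 ratio differed by -0.22 (exact permutation p = 0.478, adjusted p = 0.701). The ratio of HBEGF to TGFA had a median of 1.28 in the PBS and 1.38 in the A2M* tumours, a difference of 0.10 in log2 (exact permutation p = 0.701, adjusted p = 0.701). For none of the 3 ratios was the difference beyond the spread between tumours.

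The 10 genes differed in how much they varied between tumours of a group. The biological coefficient of variation, the spread left after counting noise, was 22.9% for AREG, 21.5% for HBEGF, 18.8% for ERBB2 and 18% for BTC. Each of these 4 exceeded 80% or more of the genes tested. It was lowest for EGF at 11.4% and ERBB3 at 12.0%, both below the median of 12.4% over all genes. The ratio of the highest to the lowest tumour in CPM ran from 1.34 for EGF to 2.91 for AREG.

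**Figure D3:**
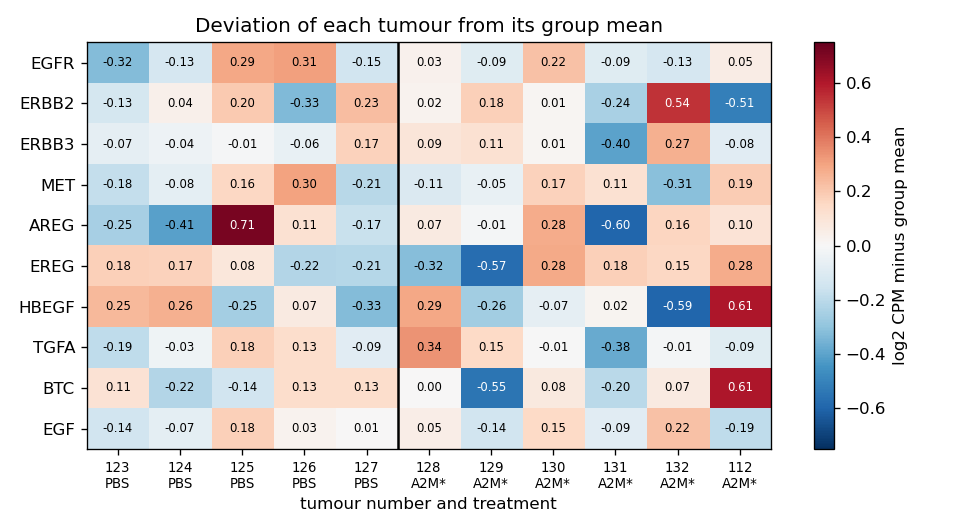
Log2 CPM of each gene in each tumour minus the mean of its treatment group, with red for higher and blue for lower values and the 2 groups parted by a black line. In PC3_tumor_132 and PC3_tumor_112 of the A2M* group, ERBB2 and HBEGF deviate in opposite directions, and PC3_tumor_125 and PC3_tumor_126 of the PBS group are high for EGFR and MET.

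Levels were then compared between the genes over the 11 tumours, with each value taken relative to the mean of its treatment group, with a two-sided exact test that permuted tumours only within their treatment group. Of the 45 pairs, 7 had a p under 0.05 by Pearson's r and 0 after Benjamini-Hochberg adjustment over the pairs. How often genes outside this set reach such a p with each other in these tumours was not tested. The count of 7 therefore does not show relations particular to the receptors and ligands. ERBB2 and HBEGF had the most negative value of all pairs, r = -0.84 (exact permutation p = 0.00624, adjusted p = 0.178) and Spearman's rho of -0.75 (exact permutation p = 0.0163, adjusted p = 0.244). PC3_tumor_132 had the highest ERBB2, 511.0 CPM, and the lowest HBEGF, 18.4 CPM, while PC3_tumor_112 had the lowest ERBB2, 245.9 CPM, and the highest HBEGF, 42.3 CPM. Without these 2 tumours r was -0.57.

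EGFR and MET had the highest value of all pairs, r = 0.79 (exact permutation p = 0.00789, adjusted p = 0.178) and rho of 0.83 (exact permutation p = 0.00204, adjusted p = 0.0458). MET stood at 163.3 CPM in PBS tumour PC3_tumor_123, 175.1 in PC3_tumor_124, 205.7 in PC3_tumor_125, 227.8 in PC3_tumor_126 and 160.1 in PC3_tumor_127, so that PC3_tumor_125 and PC3_tumor_126 were highest for MET as they were for EGFR. Without these 2 tumours r was 0.58. ERBB2 and ERBB3, which form the most active pair of the family, had r = 0.73 (exact permutation p = 0.0313, adjusted p = 0.231) and rho of 0.85 (exact permutation p = 0.00163, adjusted p = 0.0458). Their r was 0.71 without PC3_tumor_132 and PC3_tumor_112, the 2 farthest from the median of ERBB2. ERBB2 and MET had r = -0.69 (exact permutation p = 0.0231, adjusted p = 0.231), and r = -0.48 without the same 2 tumours.

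AREG had its highest values with EGFR (r = 0.71, exact permutation p = 0.0274, adjusted p = 0.231), with TGFA (r = 0.65, exact permutation p = 0.0301, adjusted p = 0.231) and with EGF (r = 0.63, exact permutation p = 0.0359, adjusted p = 0.231). Without the 2 tumours farthest from the median of the first gene, r was 0.41 for EGFR and AREG and 0.52 for AREG and EGF. For AREG and TGFA it was 0.12, so that this relation rested on PC3_tumor_125 and PC3_tumor_131, and r was 0.43 without PC3_tumor_131 alone. AREG and its neighbour EREG had r = -0.03 (exact permutation p = 0.912, adjusted p = 0.989). HBEGF and EGFR had r = 0.006 (exact permutation p = 0.986, adjusted p = 0.989). These levels share the library and its scaling, and relative to its group mean HBEGF had r = 0.48 with the log2 total of the library, BTC 0.56 and EREG 0.40, given as a description, while the other 7 genes lay between -0.27 and 0.08. With scaling by library size only, r was -0.87 for ERBB2 and HBEGF, 0.79 for EGFR and MET and 0.72 for ERBB2 and ERBB3.

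**Figure D4:**
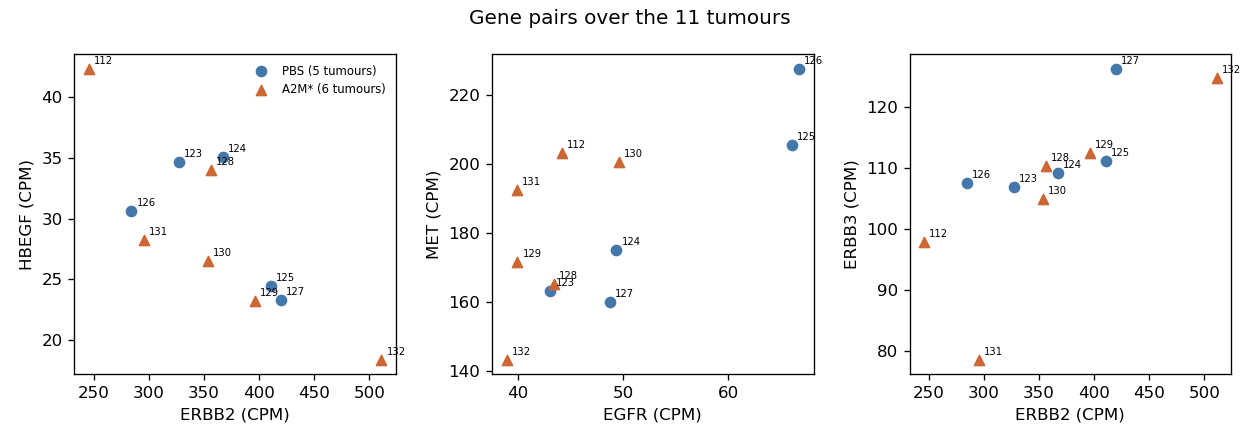
CPM of ERBB2 against HBEGF, EGFR against MET and ERBB2 against ERBB3, with 1 point per tumour, circles for PBS and triangles for A2M*, and tumour numbers beside the points. The points of ERBB2 and HBEGF run from PC3_tumor_112 (245.9 and 42.3 CPM) to PC3_tumor_132 (511.0 and 18.4 CPM), and PC3_tumor_125 and PC3_tumor_126 of the PBS group stand at the upper end for EGFR and MET.

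Among the 10 genes, MET and AREG had the highest r with EGFR. The 250 bases before the start of these 3 genes are therefore shown on the gene's own strand (RefSeq, GRCh38.p14). They lie at chr7:55018767-55019016 for EGFR, chr7:116671946-116672195 for MET and chr4:74444886-74445135 for AREG. Capitals mark matches, on either strand, to the GC box GGGCGG, the TATA box TATAAA, the AP-1 site TGACTCA and the CRE TGACGTCA, the element bound by CREB.
EGFR: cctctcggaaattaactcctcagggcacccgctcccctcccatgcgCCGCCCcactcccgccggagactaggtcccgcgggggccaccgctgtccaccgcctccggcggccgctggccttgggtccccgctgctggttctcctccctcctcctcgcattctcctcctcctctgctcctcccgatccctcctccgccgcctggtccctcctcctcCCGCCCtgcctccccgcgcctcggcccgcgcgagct
MET: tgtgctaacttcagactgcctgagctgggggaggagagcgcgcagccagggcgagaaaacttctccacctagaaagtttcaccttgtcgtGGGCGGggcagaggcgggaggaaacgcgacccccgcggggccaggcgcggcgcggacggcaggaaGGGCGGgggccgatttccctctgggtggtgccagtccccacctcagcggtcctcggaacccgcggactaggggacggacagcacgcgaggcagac
AREG: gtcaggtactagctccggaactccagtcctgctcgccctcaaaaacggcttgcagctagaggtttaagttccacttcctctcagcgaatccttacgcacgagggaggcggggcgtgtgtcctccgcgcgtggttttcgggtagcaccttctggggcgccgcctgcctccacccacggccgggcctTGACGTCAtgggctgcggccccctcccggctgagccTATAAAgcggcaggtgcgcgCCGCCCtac
EGFR and MET each held 2 GC boxes and none of the other motifs, with a GC content of 73.6% and 68.4%, against a median of 58.0% over all 35116 windows of this length in the table. AREG held 1 GC box, 1 TATA box that starts 29 bases before the gene start and 1 CRE that starts 65 bases before it. Among all windows, 42.6% held the GC box, 10.7% the TATA box, 4.20% the AP-1 site and 1.65% the CRE. Of the 10 genes 9 had a window. The GC box occurred in 5 of these, with 5 matches in HBEGF (GC content 76.4%) and 3 in TGFA (75.6%), more than in EGFR or MET. The TATA box occurred in AREG and EREG, the AP-1 site in EGF and the CRE in AREG. Such matches describe the sequence only.

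For each of the 10 genes, the tested genes with the most similar pattern over the 11 tumours, by Pearson's r of log2 CPM relative to the group mean, were also listed. These r values describe 11 tumours that share libraries and scaling, and they are the highest of 16630 genes. EGFR was most like CD55 (r = 0.96) and ESCO1 (r = 0.95), ERBB2 like ADCY6 (r = 0.98) and NR1H3 (r = 0.98), ERBB3 like RNF43 (r = 0.97) and PLLP (r = 0.95), and MET like MAPK6 (r = 0.98) and SAMD8 (r = 0.98). AREG was most like FAM107B (r = 0.94) and RGCC (r = 0.93), HBEGF like FRMD5 (r = 0.96) and TMEM217 (r = 0.95), and TGFA like HEBP2 (r = 0.95) and TLCD1 (r = 0.92). For EREG these were MPC1 (r = 0.90) and CD300LG (r = 0.86), for BTC ZNF587B (r = 0.90) and PAQR8 (r = 0.88), and for EGF ZNF433 (r = 0.93) and HSPA7 (r = 0.92).

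Other genes of the pathway were taken from 5 lists with 70 genes, of which 67 could be tested. None passed an adjusted p under 0.01, and 5 had an unadjusted p under 0.05, 1 higher and 4 lower in the A2M* tumours. These were 7.46% of the genes tested on the lists, close to the 7.08% over all genes. Among 9 further receptors and ligands, 6 could be tested, with a median log2 fold change of -0.10. MST1R, the receptor closest to MET, had a median of 26.9 RPKM, while ERBB4 was at or below 0.0998 RPKM. HGF, the ligand of MET, had 1 to 14 human counts per tumour and NRG1, a ligand of ERBB3, 0 to 5, and neither could be tested. EPGN had a median of 3.10 RPKM, above the medians of BTC, EGF, EREG and AREG as deposited. NRG2 ranged from 0.525 to 3.17 CPM in the A2M* tumours and from 0.604 to 1.39 CPM in the PBS tumours (log2 fold change 0.59, standard error 0.419, edgeR adjusted p = 0.838). ERBB4 differed by -0.24 in log2 (SE 0.224).

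All 13 genes for the shedding of ligands and the activation of HGF were tested, with a median log2 fold change of -0.05 and 0 at an unadjusted p under 0.05. The main sheddases of the EGF-like ligands, ADAM10 (log2 fold change -0.05, standard error 0.0690) and ADAM17 (-0.04, standard error 0.0851), had small differences. ADAM8 averaged 151.6 ± 36.8 CPM with PBS (SD, n = 5) and 110.8 ± 35.9 CPM with A2M* (SD, n = 6) (log2 fold change -0.45, edgeR adjusted p = 0.731). RHBDF1, which encodes an iRhom protein needed by ADAM17, had a log2 fold change of -0.14 (edgeR adjusted p = 0.773).

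Of 18 adaptors and members of the RAS and ERK cascade, 2 had an unadjusted p under 0.05, both lower in the A2M* tumours. PLCG1, a phospholipase that binds activated EGFR and MET, had 278.4 ± 15.5 CPM with PBS (SD, n = 5) and 236.8 ± 20.8 CPM with A2M* (SD, n = 6), with 4 of 6 A2M* tumours below every PBS tumour (log2 fold change -0.23, edgeR unadjusted p = 0.00555, adjusted p = 0.599). MAPK3, which encodes ERK1, had a log2 fold change of -0.17 (edgeR unadjusted p = 0.0480, adjusted p = 0.700). Among 18 genes of feedback and receptor turnover, CBLC, a ubiquitin ligase that acts on EGFR, had 22.9 ± 2.50 CPM with PBS (SD, n = 5) and 18.2 ± 2.41 CPM with A2M* (SD, n = 6) (log2 fold change -0.34, edgeR unadjusted p = 0.00633, adjusted p = 0.627). SPRED2, an inhibitor of RAS signalling, had a log2 fold change of 0.16 (edgeR adjusted p = 0.713). The ERK feedback genes DUSP6 (log2 fold change -0.06, standard error 0.0754) and SPRY4 (0.14, standard error 0.131) had an unadjusted edgeR p of 0.403 and 0.305.

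Of 12 genes induced by ERK and AP-1 signalling, FOS had the largest fold change, -1.57 in log2 (standard error 0.505, edgeR unadjusted p = 0.00781, adjusted p = 0.640). FOS ran from 1.09 to 11.4 CPM in the PBS tumours and from 1.13 to 2.28 CPM in the A2M* tumours, so that every A2M* tumour lay inside the PBS range. CCND1, which encodes cyclin D1, was above every PBS tumour in 5 of 6 A2M* tumours, with 343.9 ± 25.9 CPM with PBS (SD, n = 5) and 396.9 ± 49.3 CPM with A2M* (SD, n = 6) (log2 fold change 0.21, edgeR unadjusted p = 0.0395, adjusted p = 0.697). The median log2 fold change of these 12 genes was -0.02, beside -0.002 over all genes.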

How the data were processed

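RNA of 11 PC-3 tumours was sequenced as single reads from TruSeq libraries. The authors extracted reads with bcl2fastq 1.8.4, sorted them by species with xenome, mapped the human ones to hg19 with TopHat2 and ran featureCounts on RefSeq gene models. The deposited counts are not normalized. The RPM values deposited are counts divided by the total of the tumour (largest difference 4.99e-07), and the RPKM values deposited are also divided by exon length. RPKM served for levels between genes, counts for tests. Strand, handling of multiply mapped reads and versions of other tools are not given in the sources used here.

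Counts were filtered with filterByExpr, scaled with TMM and tested with edgeR 4.0.16 (quasi-likelihood, R 4.3.3) over 16630 genes, at an adjusted p under 0.01. The steps were tested on simulated data with 200 genes changed at once, where 46.5% of 1.5-fold, 80.5% of 2-fold and 96.5% of 4-fold changes were found. With fewer genes changed the adjustment is stricter, so these shares need not hold for a single gene. Smaller changes were not simulated. Log2 CPM used a prior count of 2. Alternatives were RLE scaling, library size only, no filter, at least 10 counts per tumour, DESeq2 1.42.0, limma 3.58.1 (voom, and log2(RPKM + 0.1)), an adjusted p under 0.05 and each tumour left out. Named were the 10 members, the 2 genes with the smallest p on each pathway list, the 2 genes most alike to each member and, chosen after their values were seen, MST1R, HGF, NRG1, EPGN, ADAM10, ADAM17, DUSP6 and SPRY4. The members and lists were chosen with earlier results of these data known. No pair of tumours was a repeated library (chi-square per degree of freedom of at least 8.72). Tumour numbers are not shared between the groups, so nothing was paired. Positions are from GENCODE on GRCh37, and promoters from RefSeq on GRCh38.p14.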

Additional observations from a re-analysis of the deposited data

Results flagged for a closer look

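ERBB3 stood at 126.2 CPM in PBS tumour PC3_tumor_127, far from the other 4 PBS tumours, which lay between 106.9 and 111.1 CPM. ERBB2 was also highest there among the PBS tumours, at 419.9 CPM. The search covered 26 groups of values, the CPM of the 10 genes and the 3 ratios in each treatment group, where chance gives 1.30 such values and 1 was found.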

How the results depend on the processing

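The count of 0 among the 10 genes was also 0 under every alternative run, those with 1 tumour left out included, and the smallest adjusted p of a member under any of them was 0.318 (EGFR, DESeq2). Over all genes the count was 0 except with DESeq2, which gave 1 gene (REP15, named after its value was seen). It was 0 to 0 with each tumour left out. Of 180 fold changes of the members, 159 kept their direction, while 21 turned sign, in 6 of the genes. Scaling by library size only moved the median of all genes to 0.04, and there ERBB2 was 0.0398, HBEGF 0.0033 and EGF 0.0045, and on log2(RPKM + 0.1), where that median was also 0.04, ERBB2 was 0.013, so that these 4 turns came with a shift of all genes of similar or larger size. With each tumour left out, ranges were -0.14 to 0.083 for ERBB2, -0.10 to 0.027 for MET, -0.18 to 0.064 for HBEGF, -0.24 to -0.09 for TGFA, -0.16 to -0.03 for ERBB3, -0.11 to 0.13 for BTC, -0.0087 to 0.13 for EREG and -0.087 to 0.0063 for EGF. The log2 ratio of HBEGF to TGFA ran from -0.038 to 0.22, that of EGFR to ERBB2 from -0.43 to -0.15 and that of AREG to EREG from -0.37 to -0.06. The cause was not tested. For the 7 pairs of genes with p under 0.05, r kept its sign with scaling by library size only and in the A2M* tumours alone. The other alternatives of scaling, filter and test were not run for r. With each tumour left out, r ran from -0.88 to -0.74 for ERBB2 with HBEGF, 0.71 to 0.85 for EGFR with MET and 0.60 to 0.87 for ERBB2 with ERBB3. It ran from -0.81 to -0.53 for ERBB2 with MET, 0.57 to 0.77 for EGFR with AREG, 0.43 to 0.77 for AREG with TGFA and 0.48 to 0.77 for AREG with EGF. Summing AREG with AREGB could not be run, since the files list AREG only. In EREG, with 13 counts in the shallowest library, depth limits what can be shown.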
